A study of Danio rerio with 6 samples.

Results

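The epicardial regulator genes *tcf21*, *tbx18*, *wt1a* and *wt1b* were followed in RNA-seq data of sorted zebrafish heart cells. The 4 genes were chosen with earlier results of these data known. They were located in the tables by symbol, and all 4 were found among the 31465 genes of each table. *tcf21* (ENSDARG00000036869) and *tbx18* (ENSDARG00000036930) lie on chromosome 23, *wt1a* (ENSDARG00000031420, listed as WT1 in the gene name table) on chromosome 25 and *wt1b* (ENSDARG00000007990) on chromosome 18 of the zebrafish assembly GRCz11.

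The study asked which genes set the sinoatrial ring (SAR), the pacemaker region at the inflow of the atrium, apart from the rest of the heart (ROH). Hearts of the GFP enhancer trap line sqet33mi59BEt were collected at 72 hpf (hours post fertilization), dissociated and separated by FACS into GFP-positive cells (SAR, 3 libraries) and GFP-negative cells (ROH, 3 libraries). Both fractions share the transgene and the stage, no treatment is named for either, and each replicate was made from many pooled embryos. The SAR fraction is defined only by the fluorescence of the trapped line, so any cell that expressed GFP in the preparation could enter it.

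The epicardium is the mesothelial sheet that covers the heart. It arises from the proepicardium, a cluster of cells that forms near the venous pole and transfers onto the myocardium, and some of its cells later undergo an epithelial to mesenchymal transition and give rise to fibroblasts and mural cells. *tcf21* encodes a basic helix-loop-helix transcription factor and *tbx18* a T-box transcription factor, and both are widely used markers of epicardial cells. *wt1a* and *wt1b* encode the zebrafish copies of the Wilms tumor zinc-finger transcription factor, which is also known for its role in the podocytes of the kidney glomerulus.

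The libraries differed greatly in depth. Estimated counts summed to between 7495108 and 77243214 in the SAR libraries and to between 999437 and 23495798 in the ROH libraries, and ROH replicate 1 was the smallest. A minimum of 3 counts, taken here as the smallest detectable amount, corresponded to between 0.0388 and 0.400 CPM (counts scaled to the library total) in SAR and to between 0.128 and 3.0 CPM in ROH. This limit and the intervals given below cover counting error only, since reads copied by PCR and carrying no molecular identifiers do not count molecules. The correlation of log2 CPM between libraries of one fraction lay between 0.874 and 0.965.

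All 4 epicardial regulators were called higher in SAR, by 9.55-fold to 29.5-fold. A gene was called when edgeR's quasi-likelihood test gave a Benjamini-Hochberg adjusted p-value below 0.05 over the 21969 tested genes and the log2 fold change was 1.5 or more in either direction. Of all tested genes, 2.84% were called higher and 3.7% were called lower in SAR. For each of the 4, the lowest SAR library exceeded the highest ROH library, which was the case for 14.3% of all tested genes. In bulk fractions such as these, fewer cells of a type and less RNA per cell cannot be told apart.

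*tcf21* had 169, 125 and 174 TPM (a level corrected for gene length and library total) in SAR replicates 1, 2 and 3, against 22.3, 10.03 and 20.8 TPM in ROH replicates 1, 2 and 3. The fractions did not overlap, and ROH replicate 2 was the lowest of the 6 libraries. The lowest SAR value was 5.61 times the highest ROH value. Estimated counts were 806, 2733 and 7981 in SAR and 13, 153 and 269 in ROH. The normalized level averaged 101 ± 19.2 CPM in SAR and 10.8 ± 4.16 CPM in ROH (SD, n = 3 each). edgeR's quasi-likelihood test gave a log2 fold change of 3.26 (SE 0.34, Benjamini-Hochberg adjusted p = 0.00149).

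*tbx18* reached 68.1, 104 and 125 TPM in the SAR replicates and 6.10, 4.30 and 12.0 TPM in the ROH replicates. It was the member whose libraries varied most within a fraction, with a coefficient of variation of 28.9% in SAR and 54.0% in ROH, yet its lowest SAR library was 5.67 times its highest ROH library. The estimated counts behind these levels were 844, 5241 and 14946 in SAR and 11, 166 and 386 in ROH. The log2 fold change was 3.62 (SE 0.42, adjusted p = 0.00235 in the quasi-likelihood test of edgeR, Benjamini-Hochberg method). ROH replicate 3, the highest of its fraction, weighed on this value: without that library the log2 fold change of *tbx18* was 4.40.

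*wt1a* was the lowest of the 4 genes in every library. Its level was 17.8, 19.6 and 21.8 TPM in the SAR replicates, against 0.735, 1.69 and 2.38 TPM in the ROH replicates. The SAR libraries agreed closely, with a coefficient of variation of 10.2%, whereas that of the ROH libraries was 51.6%. The counts were 171, 786 and 2028 in SAR and 1, 51 and 60 in ROH. The single count in ROH replicate 1 had an exact Poisson 95% interval of 0.0253 to 5.57 CPM of the library total. *wt1a* averaged 24.8 ± 1.78 CPM in SAR and 2.05 ± 1.11 CPM in ROH (SD, n = 3 each). Its log2 fold change was 3.36 (SE 0.33, adjusted p = 0.00117 in the quasi-likelihood test of edgeR, Benjamini-Hochberg method). Without ROH replicate 1 the log2 fold change was 3.25.

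*wt1b* showed the largest difference of the 4 genes. It had 127, 100 and 93.7 TPM in the SAR replicates and 2.81, 4.57 and 2.84 TPM in the ROH replicates. Both fractions were narrow, with coefficients of variation of 16.3% in SAR and 29.5% in ROH, and the lowest SAR library was 20.5 times the highest ROH library. Estimated counts were 851, 2930 and 6085 in SAR and 2.51, 97.0 and 50.7 in ROH, and *wt1b* was the only one of the 4 genes with fractional counts, which Salmon gives where reads fit more than 1 gene model. The rounded 3 counts of ROH replicate 1 allowed a level between 0.619 and 8.77 CPM of the library total (exact Poisson 95% interval). With a log2 fold change of 4.88 (SE 0.29, adjusted p = 1.43e-04 in the quasi-likelihood test of edgeR, Benjamini-Hochberg method), only 0.337% of all tested genes had a larger one. The corresponding share was 0.815% for *tbx18*, 0.983% for *wt1a* and 1.07% for *tcf21*.

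**Figure D1:**
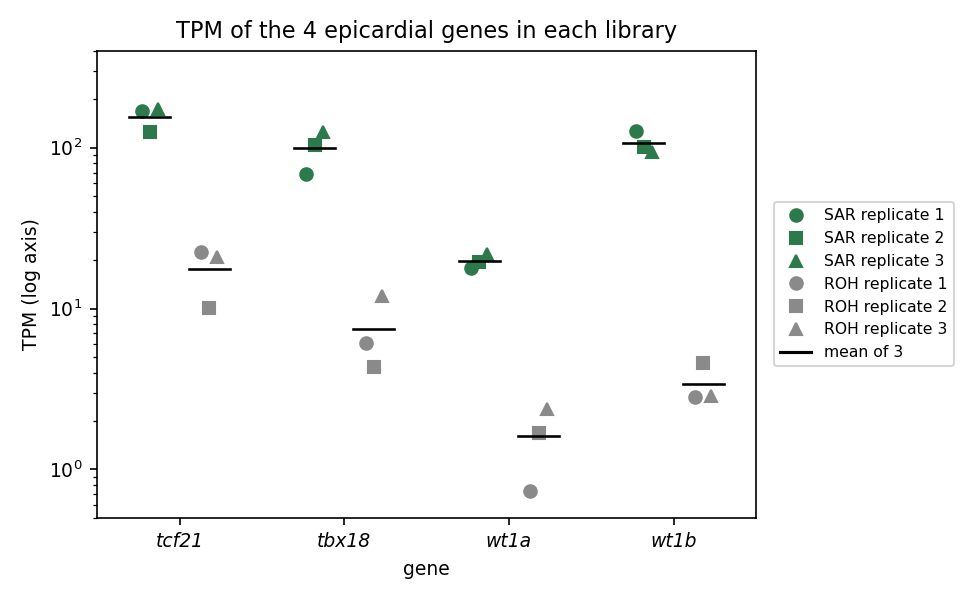
TPM of *tcf21*, *tbx18*, *wt1a* and *wt1b* in each of the 6 libraries on a log axis, with SAR in green left of ROH in grey, the replicate shown by the symbol, and a bar for the mean of the 3 libraries. Within each gene every SAR point lies above every ROH point, and *wt1a* is the lowest gene in both fractions.

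The fraction labels of the log2 CPM values were also permuted in an exact and two-sided test, without regard to replicate numbers. This permutation test gave p = 0.1 for each of the 4 genes, the smallest value that 3 against 3 unpaired libraries allow. The value follows from the separation of the fractions given above. All 4 remained called when any single library was left out. The log2 fold change then lay between 2.92 and 3.72 for *tcf21*, between 3.26 and 4.40 for *tbx18*, between 3.22 and 3.78 for *wt1a* and between 4.66 and 5.15 for *wt1b*. Counts of every library were also thinned to the total of the smallest one. *wt1b* then kept 119, 92 and 76 counts in SAR and 3, 8 and 2 in ROH, and *wt1a* kept 24, 19 and 17 in SAR and 1, 2 and 5 in ROH. At these equal library totals the log2 fold change was 3.31 for *tcf21*, 3.58 for *tbx18*, 2.96 for *wt1a* and 4.55 for *wt1b*, and all were called.

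Levels can be compared between the genes on the TPM scale, here as a description without a test. *tcf21* was the highest of the 4 genes in every library. In SAR replicates 2 and 3 the order was *tcf21*, *tbx18*, *wt1b*, *wt1a*, and in SAR replicate 1 *wt1b* and *tbx18* changed places. The mean was 156 ± 26.7 TPM for *tcf21*, 107 ± 17.5 TPM for *wt1b*, 98.8 ± 28.6 TPM for *tbx18* and 19.7 ± 2.01 TPM for *wt1a* in SAR (SD, n = 3). The libraries of *tcf21*, *wt1b* and *tbx18* overlapped between neighbours in this order, whereas *wt1a* was below the other genes in each library. In ROH the means were 17.7 ± 6.71 TPM for *tcf21*, 7.47 ± 4.03 TPM for *tbx18*, 3.40 ± 1.01 TPM for *wt1b* and 1.60 ± 0.827 TPM for *wt1a* (SD, n = 3). Here *tcf21* overlapped with *tbx18* and *tbx18* with *wt1b*, while the highest *wt1a* library was below the lowest *wt1b* library.

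The proportions of the 4 genes to each other are also given as a description. The ratio of *wt1b* to *wt1a* on the TPM scale was 7.14, 5.13 and 4.30 in the SAR replicates, against 3.82, 2.70 and 1.19 in the ROH replicates, so that all SAR ratios were above all ROH ratios. The ratio of *tcf21* to *tbx18* was 2.49, 1.21 and 1.39 in SAR and 3.66, 2.33 and 1.73 in ROH, which overlapped. *wt1b* made up 33.2%, 28.8% and 22.6% of the summed TPM of the 4 genes in SAR and 8.78%, 22.2% and 7.47% in ROH. The share of *tcf21* was 44.3%, 35.9% and 42.0% in SAR and 69.8%, 48.7% and 54.7% in ROH, higher in each ROH library than in any SAR library. Some of the ROH shares rest on very few counts, as given above for ROH replicate 1.

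**Figure D2:**
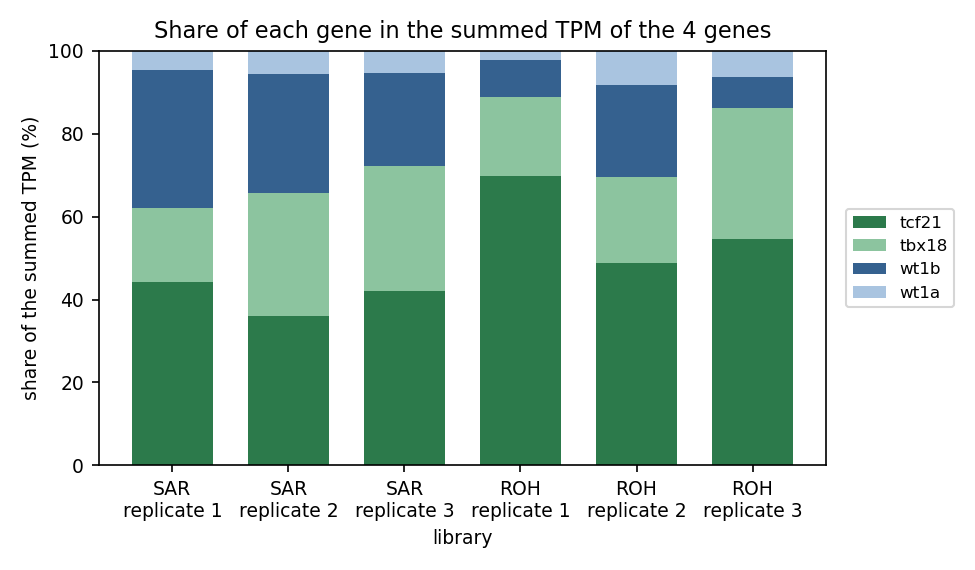
Share of *tcf21*, *tbx18*, *wt1b* and *wt1a* in the summed TPM of the 4 genes (percent, stacked from 0 to 100) in each SAR and ROH library. The *wt1b* part is between 22.6% and 33.2% in SAR and between 7.47% and 22.2% in ROH, and the *tcf21* part is the largest in each library.

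Set against all genes detected in the same library, each of the 4 genes stood higher in every SAR library than in any ROH library. *tcf21* exceeded 95.8%, 95.4% and 96.6% of detected genes in the SAR replicates and 72.3%, 66.1% and 77.7% in the ROH replicates. For *wt1b* the corresponding values were 94.4%, 94.3% and 93.7% in SAR, against 25.8%, 52.1% and 42.8% in ROH. *tbx18* exceeded between 90.4% and 95.2% of detected genes in SAR and between 43.5% and 68.9% in ROH. *wt1a*, the lowest, exceeded between 73.5% and 79.2% of detected genes in SAR and between 6.04% and 39.6% in ROH. In sum, the 4 genes amounted to 382, 349 and 414 TPM in SAR and to 32.0, 20.6 and 38.0 TPM in ROH.

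The profile of each gene over the 6 libraries was compared with those of all tested genes by the root mean square difference of centred log2 CPM, a measure that is 0 for identical profiles and that is dominated here by the difference between the fractions. The 5 nearest genes of *tcf21* were *col12a1a* (0.296), *tspan12* (0.304), *megf10* (0.339), *mfap5* (0.341) and *ptgs2b* (0.358). For *tbx18* they were *cdh15* (0.255), *si:ch211-195m9.3* (0.262), *gal3st2* (0.351), *mfap5* (0.382) and *cygb2* (0.393). *mfap5*, a gene for a microfibril-associated protein, was thus near both, with 347, 306 and 406 TPM in SAR and 29.1, 30.3 and 45.0 TPM in ROH.

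The nearest gene of *wt1a* was *si:dkey-73p2.3* at 0.120, followed by *cygb2* (0.196), a cytoglobin gene, *tmprss13a* (0.268), NANS (0.296) and DAPK2 (0.302). All of these but *cygb2* had 0 TPM in ROH replicate 1 and at most 0.452 TPM in any ROH library. At such levels the distance depends on the prior count of 2 added before the log. The nearest genes of *wt1b* were *zgc:92480* (0.237), *si:ch211-239f4.6* (0.364), *si:dkey-33c14.3* (0.377), *col18a1b* (0.392), which encodes a basement membrane collagen, and *scel* (0.405). Of these, *si:ch211-239f4.6* was at most 0.0356 TPM in ROH. *col18a1b* had 206, 207 and 331 TPM in SAR and 7.36, 11.8 and 9.65 TPM in ROH. Among the 4 genes themselves, *tcf21* and *tbx18* were closest, at 0.439, and each was among the 11 nearest genes of the other. *wt1a* was nearer to *tbx18* (0.522) than to *wt1b* (0.816), and *tcf21* and *wt1b* were farthest apart (0.987).

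In the gene order of RefSeq's zebrafish assembly GRCz12tu, which was used for names only, *tbx18* and *tcf21* have 9 protein-coding genes between them on chromosome 23. All 9 were tested and 1 of them, *zgc:153284*, was called higher in SAR (log2 fold change 3.14, adjusted p = 0.00370 in the quasi-likelihood test of edgeR, Benjamini-Hochberg method). *eya4*, the gene next to *tcf21*, had a log2 fold change of 1.44 (adjusted p = 0.0291 in the same edgeR test), below the fold threshold. On the other side of *tcf21*, *aldh8a1* was called lower (log2 fold change -2.89), and *nav2b* near *wt1a* was called higher (1.51). Among the 5 genes on either side, edgeR called 2 of 10 tested around *tcf21*, 1 of 7 around *wt1a*, 0 of 8 around *tbx18* and 0 of 9 around *wt1b*, with 2 around *tbx18* and 1 around *wt1b* at an unadjusted p under 0.05, and DESeq2 and limma on log2(TPM + 1) called 0 around these last genes. Over all tested genes, edgeR called 2.84% higher and 3.7% lower. These neighbours were picked by position after the values of the 4 genes were seen.

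To see whether other genes of the same tissue differed alongside, a list of symbols known from epicardium or mesothelium was examined. Of these symbols, 4 matched no gene, and the others gave 14 genes, all of which were tested. Of the 14 genes, 7 were called higher and 7 were not called, which is 50% called higher against 2.84% of all tested genes. This list and those below were chosen with earlier results of these data known, so such shares are a description and not independent support. The median log2 fold change was 1.80 in this list and 0.030 over all tested genes. In the lists of other cells described below, this median ranged from -8.97 (erythrocyte) to 2.55 (epidermis and ionocyte). It was 1.51 for cardiomyocyte genes, 1.07 for sinoatrial genes and 1.03 for neuron genes. Every one of the 7 stayed called when single libraries were left out.

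*aldh1a2*, the gene of an enzyme that makes retinoic acid, had 304, 323 and 448 TPM in SAR and 72.6, 60.5 and 77.6 TPM in ROH (log2 fold change 2.29, adjusted p = 0.00117 in the quasi-likelihood test of edgeR, Benjamini-Hochberg method). *jam2b*, a junctional adhesion molecule gene, reached 280, 413 and 385 TPM in SAR and 9.37, 29.3 and 34.3 TPM in ROH, a log2 fold change of 3.73. The fractions did not overlap for either gene.

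*podxl*, the gene of the sialomucin podocalyxin, had 274, 447 and 461 TPM in SAR and 79.7, 89.8 and 43.2 TPM in ROH (log2 fold change 2.62). *adma*, which encodes the peptide adrenomedullin, had 123, 211 and 218 TPM in SAR and 30.5, 38.1 and 28.6 TPM in ROH (2.48). The transglutaminase gene *tgm2b* had 193, 213 and 261 TPM in SAR and 48.4, 58.8 and 46.7 TPM in ROH (2.19). All of these were separated between the fractions, as were *bnc2*, the zinc-finger gene basonuclin (2.45), and *mmel1*, a membrane metalloendopeptidase gene (3.70), of which *mmel1* spread from 17.8 to 95.2 TPM within SAR.

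Among the 7 genes that were not called, the keratin gene *krt18a.1* had 1917, 1962 and 1860 TPM in SAR and 2468, 1861 and 1261 TPM in ROH, which overlapped. CAV1, a caveolin gene, had a log2 fold change of 1.41 (adjusted p = 0.0136 in the quasi-likelihood test of edgeR, Benjamini-Hochberg method) and, among fits with a library left out, was called without SAR replicate 1 and without ROH replicate 2. The genes listed as GPM6A had log2 fold changes of -0.58 and -0.66. *upk3b* (0.42), SEMA3D (0.15) and *cldn15b* (-0.13) were likewise below the threshold.

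**Figure D3:**
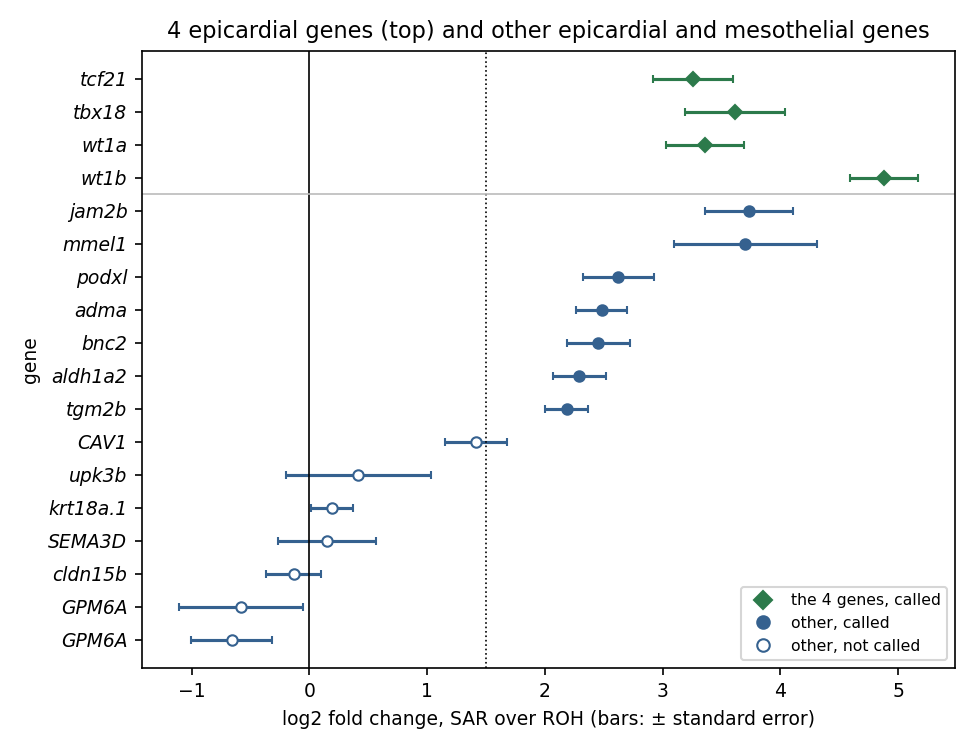
Log2 fold change of SAR over ROH with its standard error for the 4 epicardial regulators (top, diamonds) and the 14 other epicardial and mesothelial genes (circles, filled where called). The dotted line marks the fold threshold of 1.5, which the 4 regulators and 7 of the 14 other genes exceed.

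The genes that precede and follow the epicardial sheet were counted in the same way, against 2.84% called higher and 3.7% called lower among all tested genes. Of 15 tested genes for proepicardium induction and adhesion, edgeR's quasi-likelihood test called 0 higher and 1 lower, with 6 higher and 2 lower at an unadjusted p under 0.05. DESeq2 and limma on log2(TPM + 1) also called 0 higher. Every SAR value exceeded all ROH values for 6 of the 15 genes, against 14.3% of all tested genes, and the median log2 fold change was 0.14. The gene called lower, *has2*, makes hyaluronan, a component of the cardiac jelly, and had 12.2, 22.5 and 9.97 TPM in SAR against 54.2, 67.1 and 34.5 TPM in ROH (log2 fold change -1.88, adjusted p = 0.00957 in the quasi-likelihood test of edgeR, Benjamini-Hochberg method). Of the genes not called, *hand2* had the highest level, with 733, 1104 and 1059 TPM in SAR and 465, 597 and 418 TPM in ROH (log2 fold change 0.96), while the zinc-finger factor genes GATA5 and GATA6 had log2 fold changes of 0.03 and 0.67. *bmp4*, a signal for proepicardium formation, had a log2 fold change of 1.21 and, among fits with a library left out, was called without ROH replicate 3. Without the fold threshold, 3 genes of this list were higher at an adjusted p under 0.05 in edgeR's quasi-likelihood test. These were *hand2* (adjusted p = 0.0150), *bmp4* (0.0246) and the integrin gene ITGA4 (0.00967, log2 fold change 1.22). With the replicate number as a block, *vcam1b* was called lower too, so that 2 genes were.

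Of 20 tested genes of the epithelial to mesenchymal transition, 1 was called higher, and the median log2 fold change was 0.55. For 8 of the 20, every SAR value exceeded all ROH values. Among all tested genes, 2.84% were called higher and 14.3% were separated in this way. *snai2*, a repressor of epithelial genes, had 330, 242 and 289 TPM in SAR and 58.3, 62.9 and 82.0 TPM in ROH (log2 fold change 2.05, adjusted p = 0.00249 in the quasi-likelihood test of edgeR, Benjamini-Hochberg method). CDH2, the N-cadherin gene, and *fn1b*, a fibronectin gene, had log2 fold changes of 1.32 and 1.33, and *snai1a* one of 0.69. CDH2 and *fn1b* had adjusted p = 0.00531 and 0.00584 in edgeR's quasi-likelihood test and missed only the fold threshold. *snai2* stayed called in all 6 fits with a library left out, and other genes joined it in some of them. The count for this list was 4 without ROH replicate 3, with CDH2, *fn1b* and *vim*, and 3 without SAR replicate 2, with *twist2* and *vim*. With the replicate number as a block it was also 3, again with *twist2* and *vim*.

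Of 19 genes of fibroblasts and mural cells, 1 was called higher and 2 were called lower, and the median log2 fold change was 0.47. For 9 of the 19, every SAR value exceeded all ROH values. Among all tested genes, 2.84% were called higher, 3.7% were called lower and 14.3% were separated in this way. The paralogous periostin genes went in opposite directions. *postnb* had 197, 184 and 247 TPM in SAR and 24.9, 34.1 and 60.7 TPM in ROH (log2 fold change 2.32, adjusted p = 0.00642 in the quasi-likelihood test of edgeR, Benjamini-Hochberg method). *postna* had 6.37, 22.2 and 16.1 TPM in SAR and 231, 290 and 98.0 TPM in ROH (log2 fold change -3.75, adjusted p = 0.00265 in the same edgeR test). *fbln1*, an extracellular matrix gene, was called lower (-1.97) but not without ROH replicate 3, where *lum* and *myh11a* were called higher and the count higher in SAR was 3. The smooth muscle genes *acta2* (0.84) and TAGLN (0.69 and 1.01) and the collagen gene *col1a1a* (-0.73) were not called. With the replicate number as a block, *myh11a* was called higher too, so that 2 genes were.

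Of 16 tested relatives of the 4 regulators, related basic helix-loop-helix, T-box and EGR zinc-finger genes, 1 was called higher, and the median log2 fold change was 0.42. This was *tbx1*, with 13.9, 34.7 and 23.5 TPM in SAR and 6.07, 5.29 and 8.53 TPM in ROH (log2 fold change 1.79, adjusted p = 0.014 in the quasi-likelihood test of edgeR, Benjamini-Hochberg method), which was not called without SAR replicate 2 or without ROH replicate 2. The zinc-finger genes *egr1* (0.67), *egr2a* (1.2) and *egr4* (0.93) were not called. Without the fold threshold, 3 of the 16 genes were higher at an adjusted p under 0.05 in edgeR's quasi-likelihood test, *egr2a* (adjusted p = 0.0279) among them. Over the 5 lists together, 82 distinct genes were tested, of which 12.2% were called higher and 3.66% lower, against 2.84% and 3.7% of all tested genes. Most of this share came from 1 list. Of the 10 genes called higher, 7 were of the epicardial and mesothelial list, and the other lists gave 0, 1, 1 and 1.

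Since *wt1a*, *wt1b* and *tcf21* are also known from other cells, markers of those cells were examined. Of 8 tested podocyte genes, edgeR's quasi-likelihood test called 0 in either direction, with 2 higher at an unadjusted p under 0.05, and DESeq2 and limma on log2(TPM + 1) called 0. The list did not hold *podxl*, the podocalyxin gene, which was called higher as given above (log2 fold change 2.62). The median log2 fold change of this list was 0.77, and for 5 of the 8 genes every SAR value exceeded all ROH values, against 14.3% of all tested genes. NPHS1, which encodes nephrin of the slit diaphragm, had 0.364, 2.78 and 0.669 TPM in SAR and 0, 1.13 and 0.556 TPM in ROH. The summed podocyte list was 51.6 to 71.5 TPM in SAR and 26.9 to 34.9 TPM in ROH, and its highest gene was *mafba*, which other cells express too, with a log2 fold change of 1.2. *mafba* was separated between the fractions and had adjusted p = 0.00525 in edgeR's quasi-likelihood test, but stayed below the fold threshold. Of 8 tested genes of pharyngeal and head muscle mesenchyme, where *tcf21* is also expressed, 0 were called higher and 1 lower (*dlx5a*, called in only 2 of the 6 fits with a library left out) by edgeR, with 3 higher and 2 lower at an unadjusted p under 0.05, and DESeq2 and limma called 1 higher each. The head muscle genes MSC and MYF5 stayed at or below 2.11 and 0.548 TPM in all libraries. Every SAR value exceeded all ROH values for 3 of the 8 mesenchyme genes and lay below them for 2. Of the 3, *nkx2.3* (log2 fold change 1.48) and *fgf10a* (1.26) had adjusted p = 0.00966 and 0.0446 in edgeR's quasi-likelihood test but stayed below the fold threshold. The count called higher was 2 without ROH replicate 3. Of all tested genes, 2.84% were called higher and 3.7% lower.

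Of 8 tested markers of the labelled SAR identity, *hcn4* and *popdc2* were called higher, against 2.84% of all tested genes. *hcn4*, the pacemaker channel gene, had 6.35, 5.67 and 2.85 TPM in SAR and 1.90, 0.896 and 0.187 TPM in ROH. Its log2 fold change was 2.83 and stayed between 2.17 and 3.24 in the 6 fits with a library left out, although it was called in 0 of them. *popdc2* had a log2 fold change of 1.54, which lay between 1.33 and 1.83 in those fits and was called without SAR replicate 3. *isl1* had 10.2, 9.94 and 17.9 TPM in SAR and 78.9, 24.8 and 12.9 TPM in ROH and was not called by edgeR. Of the 8 genes, 4 were higher and 1 was lower at an unadjusted p under 0.05 in edgeR. DESeq2 called 2 higher and 1 lower, and limma on log2(TPM + 1) called 0. Over all tested genes, edgeR called 3.7% lower. Of 10 tested cardiomyocyte genes, 2 were called higher, against 2.84% of all tested genes. That count was 6 without SAR replicate 3, 0 without ROH replicate 3 and 1 in each other fit with a library left out. The 10 genes summed to 5217, 5277 and 2136 TPM in SAR and 1839, 1803 and 1379 TPM in ROH. SAR replicate 3 had 146 TPM of MYL7 against 903 and 1229 TPM in the other SAR libraries. The part of this difference between the SAR libraries in the values of the 4 epicardial regulators was not tested. With the replicate number as a block, 4 cardiomyocyte genes were called higher, *cmlc1* and *nppa* in addition, and *popdc2* was not called.

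Markers of other cells moved with the fractions in both directions. For the counts that follow, 2.84% of all tested genes were called higher and 3.7% lower. Every SAR value exceeded all ROH values for 14.3% of them. Of 11 epidermis and ionocyte genes, 7 were called higher, and the list summed to between 7030 and 10882 TPM in SAR and between 630 and 859 TPM in ROH, led by *icn2*, *krt4* and *cyt1*. That count lay between 5 and 7 in the 6 fits with a library left out. Of the 7 genes, *foxi3a* and *foxi3b* were each called in only 1 of these fits and *epcam* in 5. *colec10* (log2 fold change 5.38) and *colec11* (4.64), 2 of 6 tested genes of hepatic stellate cells, were called higher. For 4 of the 6 every SAR value exceeded all ROH values, the median log2 fold change was 0.85, and the list summed to between 1096 and 1843 TPM in SAR and between 631 and 819 TPM in ROH. The largest part of each sum was *hand2*, which is also in the proepicardium list and was not called. It had 733, 1104 and 1059 TPM in SAR and 465, 597 and 418 TPM in ROH. Erythrocyte genes were called lower in 9 of 9 cases, with a sum of 13.6 to 24.0 TPM in SAR and 25893 to 42377 TPM in ROH, and so were 9 of 11 endothelial, 5 of 8 myeloid and 5 of 8 hepatocyte genes, the last count being 8 without SAR replicate 2 and 1 without SAR replicate 1, ROH replicate 1 or ROH replicate 2, and 8 in the fit blocked by replicate number. Of 8 neuron genes *gap43* was called higher, of 5 neural crest genes *ltk* was called lower (in 0 of the 6 fits with a library left out), and of 3 tested skeletal muscle genes edgeR and DESeq2 called 0, with 0 at an unadjusted p under 0.05. The part of these cells in the differences of the 4 epicardial regulators was not tested. Leaving out the globin genes alters the normalization and does not test that part. All 4 regulators stayed called in that fit.

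**Figure D4:**
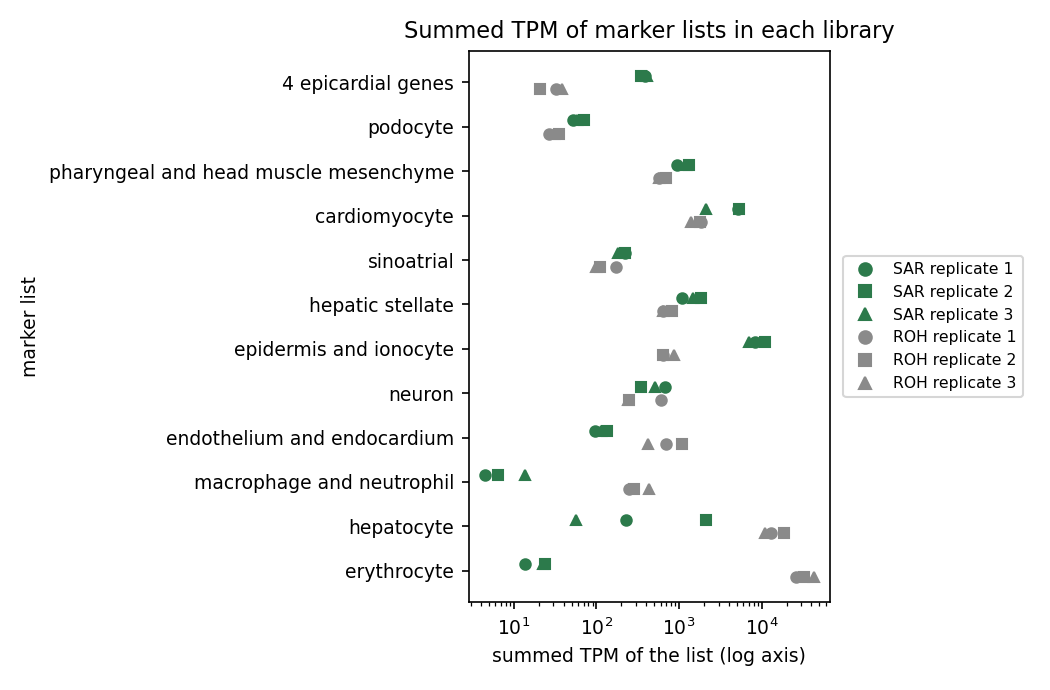
Summed TPM of the 4 epicardial regulators and of marker lists of other cells in each library on a log axis, with SAR in green above ROH in grey and the replicate shown by the symbol. The regulators sum to between 349 and 414 TPM in SAR and between 20.6 and 38.0 TPM in ROH. Podocyte sums, which do not include *podxl*, reach at most 71.5 TPM, epidermis and ionocyte sums are higher in SAR, and erythrocyte sums are higher in ROH. The largest part of the hepatic stellate sums and of the pharyngeal and head muscle mesenchyme sums is *hand2*.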

How the data were processed

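Per the labels and the study's methods, poly(A) RNA of sorted cells was converted to cDNA with SMART-Seq v4 and to Nextera XT libraries, and paired reads were mapped to GRCz11 (bcl2fastq version 2.16.10 per the submitters' processing notes, with cutadapt and Salmon of unstated versions). The authors deposited, for each library and gene, TPM, which Salmon normalized to length and library total, and estimated counts, which are not normalized. The estimated counts were rounded, and genes were kept by filterByExpr of edgeR at a minimum count of 10 and a minimum total of 15.

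edgeR (version 4.0.16, R version 4.3.3) used TMM normalization and a quasi-likelihood fit with the fraction as the only factor over 21969 genes. The standard error (SE) of a log2 fold change was derived as its absolute value divided by the square root of the quasi-likelihood F statistic. CPM values are TMM-normalized, except where the library total is named. The log2 CPM for profiles and permutation used a prior count of 2. DESeq2 (version 1.42.0) and limma (version 3.58.1, log2(TPM + pseudocount) with pseudocounts of 1 and 0.1) were alternatives, beside other normalizations, filters, length offsets, thinning to the smallest library (seed 1), left-out libraries and a replicate block. Procedures were tested on simulated data. Replicates came from separate pools of embryos. The study's methods describe cells of these pools being sorted into both fractions, and the labels give both fractions the numbers 1 to 3, so same-numbered libraries were read as pairs. Deviations of same-numbered libraries from their fraction means correlated at 0.0985, 0.273 and 0.124, and those of different numbers at -0.0813 on average. Since each mean is over 3 libraries, the average for different numbers largely follows from the same-numbered values and is no separate evidence of pairing. The study's own comparison names no block, and the replicate block was therefore the alternative.

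For 2810 genes the symbol was read from supplementary tables of the study, and for the others from the gene name table, which writes some genes in human capitals, so that the a and b copies of a gene in capitals cannot be told apart. Chromosomes came from the supplementary tables. The members and gene lists were chosen with earlier results of these data known. List symbols that matched no gene were left out, such as 3 of 13 for cardiomyocytes and 5 of 9 for skeletal muscle. Named were the 4 members, their 5 nearest genes by profile, up to 6 called genes per related list by adjusted p with the 3 most abundant not called, and the 3 most abundant markers of other cells. Genes named beyond this rule were chosen after their values were seen.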

Additional observations from a re-analysis of the deposited data

How the results depend on the processing

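The log2 fold changes of all 4 epicardial regulators stayed positive and past the threshold under every alternative that could fit them. Outside the left-out libraries they ranged from 3.13 to 3.33 for *tcf21*, 3.54 to 3.83 for *tbx18*, 2.96 to 3.67 for *wt1a* and 4.55 to 4.96 for *wt1b*. With at least 10 counts required in every library, *wt1a* and *wt1b* could not be tested because of their 1 and 2.51 counts in ROH replicate 1, so that 2 of the 4 genes were called.

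Over all genes, 624 were called higher and 813 lower. These counts were 215 and 391 with at least 10 counts in every library, 375 and 533 with limma on log2(TPM + 1), 389 and 453 with limma on log2(TPM + 0.1), 407 and 556 with thinned counts, and 1072 and 1197 with no fold change threshold. The 10 genes called higher in the 5 related lists became 18 with no fold change threshold. Leaving out single libraries gave 369 to 647 genes higher (lowest without ROH replicate 2), 442 to 1035 lower, 10 to 16 in the 5 lists (highest without ROH replicate 3), 7 to 8 in the epicardial and mesothelial list, and 4 of the 4 regulators.

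With the replicate block, 719 genes were called higher and 1040 lower, of which 1391 were shared with the unblocked calls, and the log2 fold changes were 3.28 for *tcf21*, 3.81 for *tbx18*, 3.40 for *wt1a* and 4.76 for *wt1b*. In the 5 related lists it called 13 genes higher and 4 lower, and it changed no call of the 4 regulators or of the epicardial and mesothelial list.

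Normalization by library totals only moved the median log2 fold change of all genes to -0.08, against 0.03 with TMM. Depth limits *wt1a* and *wt1b* in ROH replicate 1, where both were below 3 counts.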
